A study of Mus musculus with 2 samples.

Results

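The genes of upper glycolysis examined here encode the hexokinases Hk1, Hk2 and Hk3, the isomerase Gpi1, the phosphofructokinase subunits Pfkl, Pfkm and Pfkp, and the regulatory enzymes Pfkfb3 and Pfkfb4. These genes were chosen with earlier results of these data known. Their probes were chosen by name: every probe whose gene name in the scanner files is one of these symbols was taken, with no use of its values. That gave 9 genes of 27670 gene names on the array, covered by 19 probes of 41174. All 9 genes gave signals well above background for each RNA and in each hybridisation. The same held for 17579 gene names in all, called measured genes here. Of the 19 probes, 18 passed this filter.

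The RNA came from primary B lymphocytes of the spleen of C57BL/6 mice, prepared by removing CD43-bearing cells. All cells were grown with 25 µg/ml lipopolysaccharide and 10 ng/ml interleukin-4, and all received retroviral supernatant for 20 h with polybrene (8 µg/ml). The groups differed in the vector, which was either a control-GFP vector or a miR181b-GFP vector, and GFP+ cells were sorted 2 days after transduction. Ages, sexes and numbers of mice, and the promoter of the vectors, are not given in the sources used here. The labels name 1 RNA sample per vector, hybridised as a pair on 2 arrays with exchanged dyes: the dye of the miR-181b RNA was Cy5 on array 1 and Cy3 on array 2. These technical repeats of 1 pair of RNAs make 1 replicate. The conditions could not be tested against each other, p-values are therefore absent, and every difference below describes these RNA samples only. In RNA from a cell population, fewer cells of a type and less RNA per cell cannot be told apart.

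Glycolysis begins when a hexokinase attaches a phosphate to glucose, which traps the sugar in the cell. Glucose phosphate isomerase turns glucose 6-phosphate into fructose 6-phosphate, and phosphofructokinase, a tetramer of liver, muscle and platelet type subunits, adds a further phosphate in the committed step. The PFKFB enzymes make and degrade fructose 2,6-bisphosphate, a strong activator of phosphofructokinase. Activated lymphocytes raise glucose uptake and glycolysis, and several of these genes are classical targets of hypoxia-inducible factors and of Myc.

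The overexpressed agent is a small RNA that pairs with messenger RNAs through its seed. Its mature RefSeq sequence (GRCm38.p6) is shown because a match to the seed was looked for in the probes. Capitals mark the seed, bases 2 to 8.
mmu-miR-181b-5p: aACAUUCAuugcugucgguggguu

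The array measured each gene with probes of 60 bases. The letters TGAATGT, the complement of the seed, were found on the probe strand in 393 of 41174 probes (0.954%) and in 1 of the 19 probes of these genes, a probe of Hk1. Such a match describes the probe's letters, not a site that was tested. The Hk1 probes are shown because their ratios disagreed with that of the brightest Hk1 probe, as described further on. The match is in capitals at probe bases 52 to 58.
Hk1 probe A_51_P249024: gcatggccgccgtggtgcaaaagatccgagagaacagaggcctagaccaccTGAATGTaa
Hk1 probe A_52_P479599: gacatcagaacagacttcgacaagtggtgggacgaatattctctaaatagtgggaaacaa
Hk1 probe A_52_P674530: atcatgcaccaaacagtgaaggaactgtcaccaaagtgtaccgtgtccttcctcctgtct
Hk1 probe A_52_P9337: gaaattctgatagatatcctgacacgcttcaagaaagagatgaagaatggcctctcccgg

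Probes of Pfkp and Pfkfb3 are shown for the opposite reason, because several probes of each gene gave ratios of the same sign on both arrays.
Pfkp probe A_51_P378856: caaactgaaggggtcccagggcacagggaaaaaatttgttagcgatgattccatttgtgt
Pfkfb3 probe A_52_P138126: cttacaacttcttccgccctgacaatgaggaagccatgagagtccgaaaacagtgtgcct
Pfkfb3 probe A_52_P362917: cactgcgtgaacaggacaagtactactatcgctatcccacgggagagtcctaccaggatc

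Each log2 ratio below is miR-181b over control by the brightest measured probe of a gene. The mean of both arrays is followed by how far each array lay from it (±), a technical spread that says nothing about variation between cultures. Of the 9 genes, 7 were lower in the miR-181b RNA on both arrays: Hk1, Hk2, Pfkl, Pfkm, Pfkp, Pfkfb3 and Pfkfb4. Among all measured genes 27.4% were lower on both arrays. Hk3 was the 1 gene higher on both arrays, where the share of all measured genes was 24.4%, and Gpi1, which saturated the scanner, had opposite signs. Pfkl and Hk2 (2 of 9) had a mean at least 1.5-fold lower with the same sign on both arrays, against 0.512% of all measured genes (90 of 17579). None of the 9 was 1.5-fold higher (0.819% of all measured genes), and none met the stricter rule of a mean 2-fold lower with each array at least 1.5-fold lower (0.0967%). The median log2 ratio of the 9 genes was -0.42, with -0.45 on array 1 and -0.29 on array 2. The median of all measured genes was close to 0, at -0.01.

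The bright signals of most of these genes call for a narrower background. Among the 8789 measured genes above the median intensity, 26.6% were lower on both arrays, and a mean 1.5-fold lower with the same sign was found for 0.751%. The technical contrast between the arrays gives a further background. In 1.45% of measured genes the arrays gave opposite signs and each lay at least 1.5-fold from their mean, and Gpi1 was among these. The median of this distance was 0.17 for the 9 genes and 0.09 for all measured genes. It was below the latter for 3 of the 9, Hk1, Pfkm and Hk3.

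**Figure D1:**
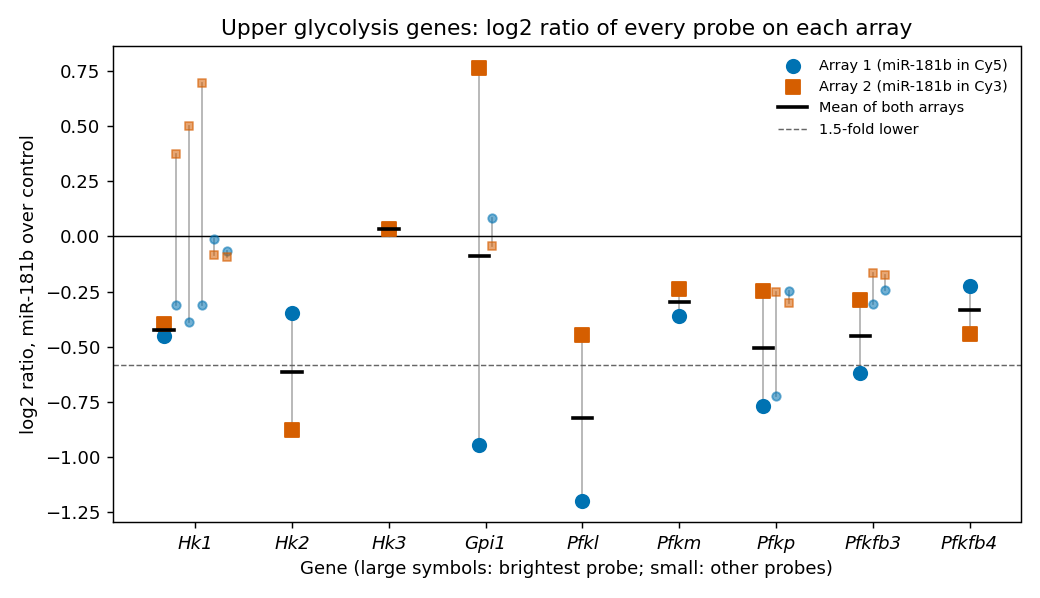
Log2 ratio of miR-181b over control (y axis) for every probe of each upper glycolysis gene (x axis), with circles for array 1 and squares for array 2. Large symbols and the bar at their mean belong to the brightest probe, small symbols to other probes. The dashed line marks 1.5-fold lower. Pfkl and Hk2 have the lowest means, -0.82 and -0.61, Hk3 lies at 0.03, and Gpi1, which was saturated, has opposite signs on the arrays.

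Among the hexokinases, Hk2 is the inducible form that glucose-hungry and proliferating cells raise. Its mean spot signals in Cy3 were 6487 in the control RNA and 3399 in the miR-181b RNA, and in Cy5 they were 13160 and 9200.1. The miR-181b signal was the lower of the pair in either dye. The log2 ratio was -0.35 on array 1 and -0.88 on array 2, with a mean of -0.61 ± 0.26, or 1.53-fold lower. Of all measured genes, 0.455% had a mean as low or lower. Hk2 has 1 probe, and on array 1 alone it did not reach 1.5-fold.

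Hk1 is the broadly expressed hexokinase that docks on mitochondria. The signals of its brightest probe in Cy3 were 11497 for the control and 7049 for miR-181b, and in Cy5 they were 20304 and 15463. This probe gave nearly equal ratios on both arrays, -0.45 and -0.40, with a mean of -0.42 ± 0.03 (1.34-fold lower). The other Hk1 probes did not show this difference. The probe with the seed match gave -0.39 on array 1 and 0.50 on array 2, with a mean of 0.06. The means of A_52_P674530 and A_52_P479599 were 0.03 and 0.19, each with opposite signs on the arrays. A_52_P9337, a dim probe, gave -0.01 and -0.09, while the scanner's own ratio put its mean at -0.38. A sixth probe, with a mean of -0.08, was not well above background. With all measured Hk1 probes averaged, the gene stood at -0.30 on array 1, 0.22 on array 2 and -0.04 in the mean. The brightest probe is annotated to BC072628 and the others to NM_010438, and its signals were far above theirs (control Cy3 signals of 546.4 for A_52_P674530 and 385.4 for A_51_P249024). In this setting the lower value of Hk1 rests on 1 probe of 5 that were measured.

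Hk3 is known mainly from myeloid cells. Its probe lay in intensity decile 3 of measured genes, with Cy3 signals of 150.8 in the control and 154.9 in the miR-181b RNA and Cy5 signals of 238.3 and 253.4. Its log2 ratio was 0.03 on array 1 and 0.04 on array 2 (mean 0.03 ± 0.00). Probes differ in brightness, so signals of different genes do not rank their expression.

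Gpi1, the isomerase between the hexokinase and phosphofructokinase steps, could not be measured in full. Its brightest probe has 10 spots on each array. All 10 control spots were saturated on both arrays, and all 10 miR-181b spots were saturated in Cy5 on array 1. On array 2, where the miR-181b RNA was in Cy3, 0 of 10 spots were saturated and their signals ran from 41191 to 51658. The log2 ratios of -0.95 and 0.77 therefore carry no settled direction. A second probe, not saturated, gave 0.09 and -0.05, with a mean of 0.02. Without Gpi1, the median of the other genes was -0.44.

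The phosphofructokinase subunits were all lower on both arrays. Pfkl, the liver type subunit, had the lowest mean of the 9 genes. Its Cy3 signals were 5379 in the control and 2499 in the miR-181b RNA, and its Cy5 signals were 6913 and 4146. The ratio was -1.20 on array 1 and -0.45 on array 2, with a mean of -0.82 ± 0.37 (1.77-fold lower), and 0.171% of measured genes had a mean as low. The arrays agreed in sign but not in size, and on array 2 alone Pfkl did not reach 1.5-fold.

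Pfkp, the platelet type subunit, had Cy3 signals of 5256 (control) and 3032 (miR-181b) and Cy5 signals of 7367 and 5488. Its mean was -0.51 ± 0.26, from -0.77 on array 1 and -0.25 on array 2 (1.42-fold lower). The other Pfkp probes had means of -0.49 and -0.27, and all 3 were lower on both arrays. By the scanner's ratio, which has no offset, the 3 probes were closer together, at -0.54, -0.55 and -0.53. Pfkm, the muscle type subunit, had signals of 1317 and 976.4 in Cy3 and 2159 and 1753 in Cy5 for control and miR-181b. Its mean of -0.30 ± 0.06 (1.23-fold lower) came from similar values on both arrays, -0.36 and -0.24.

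Pfkfb3, the inducible enzyme that favours synthesis of fructose 2,6-bisphosphate, had Cy3 signals of 7006 in the control and 4697 in the miR-181b RNA. In Cy5 the signals were 12165 and 8218. The mean was -0.45 ± 0.17, from -0.62 and -0.29 (1.37-fold lower). Its other probes had means of -0.24 and -0.21, so that all 3 were lower on both arrays, the dimmer ones by less. The scanner's ratio gave -0.47 for the brightest probe and -0.35 and -0.49 for the others. Pfkfb4, a related hypoxia-inducible enzyme, had Cy3 signals of 2484 and 1779 and Cy5 signals of 4770 and 3720 in control and miR-181b RNA. Its ratio was -0.22 on array 1 and -0.44 on array 2 (mean -0.33 ± 0.11, 1.26-fold lower).

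**Figure D2:**
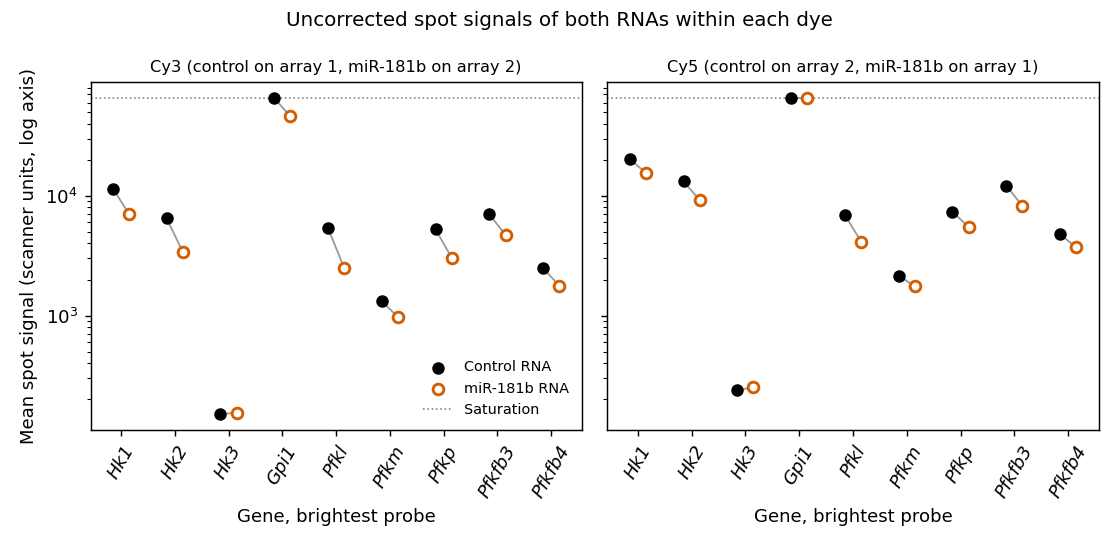
Mean spot signal (y axis, scanner units, log scale) of control RNA (filled) and miR-181b RNA (open) for the brightest probe of each gene, compared within Cy3 (left) and within Cy5 (right) with no correction for background or dye. The dotted lines mark scanner saturation. In both dyes the miR-181b signal is below the control signal for 7 genes, Hk3 is nearly level, and Gpi1 reaches saturation. These signals also hold differences in level between the arrays, and no share of all measured genes is given for them.

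The comparison within a dye sets each RNA against the other across arrays and was added after the data were seen. With background corrected and each channel scaled, 8 of the 9 genes were lower in both dyes, of which Gpi1 was saturated and is set aside. Among all measured genes 36.0% were lower in both dyes. Pfkl stood at -0.999 in Cy3 and -0.76 in Cy5, and Hk2 at -0.82 and -0.53. Pfkp (-0.69 and -0.44), Pfkfb3 (-0.46 and -0.58) and Hk1 (-0.59 and -0.41) followed. Of the genes lower in both dyes, Pfkfb4 and Pfkm differed least between dyes, with -0.37 and -0.38 for Pfkfb4 and -0.33 and -0.32 for Pfkm. Hk3 was at 0.10 and 0.11.

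With the saturated Gpi1 set aside, the order from lowest to highest mean was Pfkl, Hk2, Pfkp, Pfkfb3, Hk1, Pfkfb4, Pfkm and Hk3. The ranges spanned by the arrays overlapped between neighbours from Pfkl to Pfkm, and those of Pfkm and Hk3 did not overlap. The order changed with the array: among these 8 genes Hk2 ranked 6 on array 1 and 1 on array 2, and Pfkp ranked 2 and 6. On array 1 alone 4 genes were at least 1.5-fold lower (Pfkp, Pfkl, Pfkfb3 and Gpi1, the last with both RNAs saturated), against 1.58% of all measured genes. On array 2 alone 1 gene was (Hk2), against 1.47%. Pfkl and Hk2 thus met the 1.5-fold rule through the mean of unequal arrays.

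**Figure D3:**
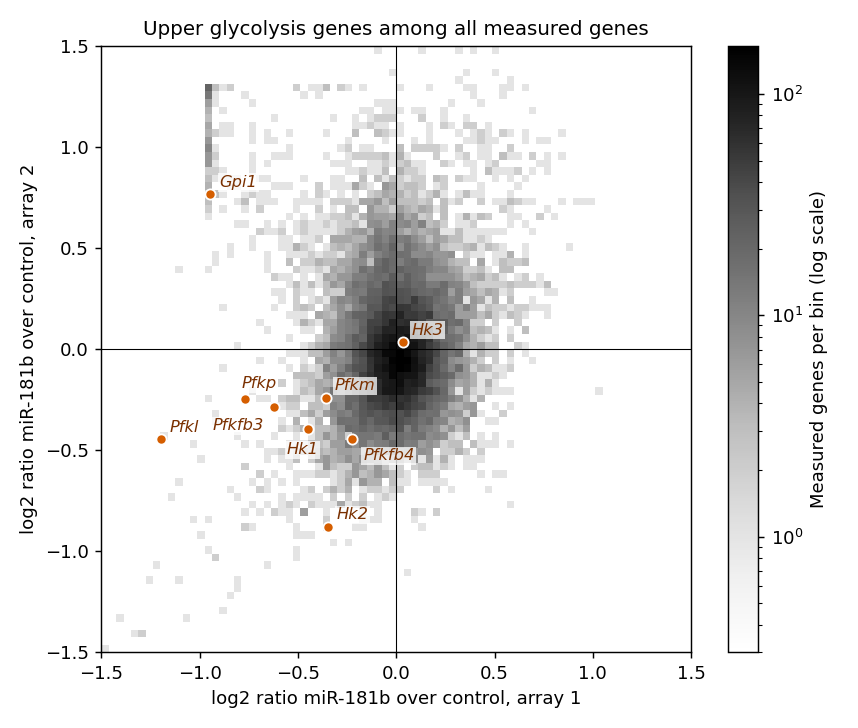
Log2 ratio on array 1 (x axis) against array 2 (y axis) for measured genes as a grey density, with the upper glycolysis genes as labelled points. Both axes end at 1.5, and 13 genes lie outside them. The 7 lower genes sit at the lower left, with Pfkl far left on array 1 and Hk2 lowest on array 2, Hk3 lies at the centre, and Gpi1, which was saturated, lies at the upper left.

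The size of these differences depended on how dye and intensity were corrected. With the software's own log ratio, Pfkl was at -0.85 and Hk2 at -0.64. The same 2 genes passed 1.5-fold, as did 1.15% of all measured genes. When arrays were only centred on their median, without the intensity-dependent correction, 7 genes passed 1.5-fold. Under that setting 5.17% of all measured genes did so too, and the median of all measured genes moved to -0.21. The bright genes moved further. Their median was -0.36 in intensity decile 8, which holds Pfkl and Pfkfb4, and -0.39 in decile 9, which holds Hk2, Pfkp and Pfkfb3. It was -0.40 in decile 10, the brightest, which holds Hk1 and Gpi1. The median of the 9 genes was then -0.82, or -0.62 relative to all measured genes. The latter value takes no account of intensity. Hk3 turned to -0.08 under median centring. With the arrays scaled to equal spread, Hk2 was at -0.57 and Pfkl alone of the 9 passed 1.5-fold, against 0.478% of all measured genes.

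**Figure D4:**
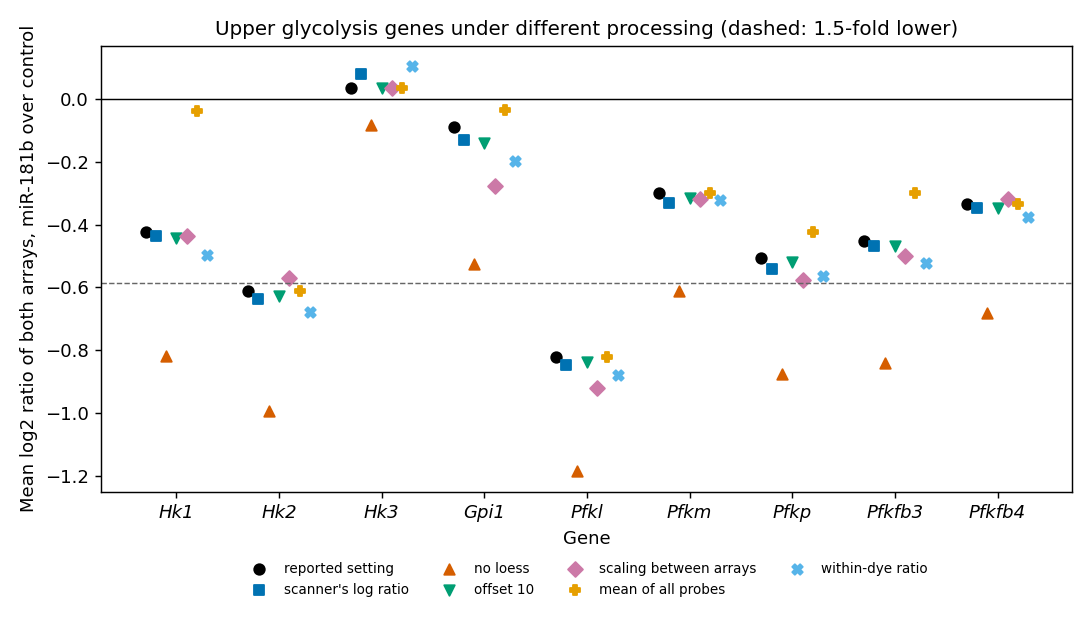
Mean log2 ratio of both arrays (y axis) for each gene (x axis) under the settings named in the legend, with the dashed line at 1.5-fold lower. Median centring (no loess) lies below the other settings for each of the 9 genes, averaging all probes moves Hk1 to -0.04, and Pfkl is below the dashed line in all settings drawn.

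Other genes acting on the same sugar phosphates were taken from a list of pathway members. Of 9 such genes 7 were measured, 3 of them lower on both arrays, 2 higher and 2 of opposite sign, with a median of -0.05. Among all measured genes 27.4% were lower and 24.4% higher on both arrays. Adpgk, which phosphorylates glucose with ADP, was at 0.23 ± 0.15. Fbp1, which reverses the phosphofructokinase step, was at 0.19 ± 0.04. Tigar, which degrades fructose 2,6-bisphosphate, was at -0.05 ± 0.02. The sister enzymes of Pfkfb3 were at -0.21 ± 0.16 (Pfkfb1) and -0.11 ± 0.13 (Pfkfb2, opposite signs).

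The steps below phosphofructokinase had 15 of 20 listed genes measured. On both arrays 8 were lower (27.4% of all measured genes were) and 3 higher (24.4%). The median of the 15 was -0.22, with -0.52 on array 1 and -0.01 on array 2. Of these, 5 had saturated spots, and the median was -0.14 with saturated spots left out and -0.13 with dim probes kept. Pgam1 was at -0.61 ± 0.18, with its control spot saturated on array 2, and Aldoc was at -0.54 ± 0.10. Tpi1 was saturated in the control on both arrays and in the miR-181b RNA on array 1, so no ratio is given for it. The shares of all measured genes, 27.4% lower and 24.4% higher on both arrays, also apply to the lists that follow. In the pentose phosphate pathway 6 of 11 genes were measured, 0 lower and 2 higher on both arrays, with a median of 0.05; Pgls was at 0.15 ± 0.08 (another probe at -0.12) and H6pd at 0.04 ± 0.01. In the hexosamine and polyol branches 13 of 13 were measured, 1 lower and 4 higher, with a median of 0.05; Pmm2 was at 0.41 ± 0.27, Gnpda1 at 0.38 ± 0.24 and Gnpda2 at -0.15 ± 0.06. Of 19 genes for hexokinase docking and for regulators of glycolysis, such as the Vdac channels, Hif1a and Myc, 4 were lower and 5 higher on both arrays, with a median of 0.05. Among them Trp53 was at 0.51 ± 0.05, with another probe at 0.39. Ppargc1a was at -0.30 ± 0.00 and Epas1 at 0.28 ± 0.03 by their brightest probes, while other probes gave -0.06 for Ppargc1a and -0.23, the opposite sign, for Epas1.

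Markers were read to see which cells the RNA held. All 8 B cell markers were well above background, 4 of them saturated, and 7 had opposite signs on the arrays (median -0.43 for array 1, 0.75 for array 2). Cd79a, not saturated, was the 1 with the same sign on both, at 0.16 and 1.56 (mean 0.86 ± 0.70). All 8 T cell markers were measured, 2 lower and 3 higher on both arrays (27.4% and 24.4% of all measured genes), with a median of 0.02. Some of their signals were low, with Cy3 control signals of 128.1 for Cd3e and 136.0 for Cd3g. For macrophages and monocytes 7 of 8 markers were measured, 2 lower and 3 higher on both arrays (27.4% and 24.4% of all measured genes). Their median was 0.06. Lyz2 was at -0.49 ± 0.07 by a dim probe (Cy3 control signal 214.5). Csf1r was at -0.26 ± 0.05, with other probes at 0.13 and 0.19, and Itgam was at 0.27 ± 0.10, with another probe at 0.055. Of 8 granulocyte markers 3 were measured, with a median of -0.10, while Elane, S100a8, Camp and Csf3r were not well above background. Of 6 erythroid and platelet markers 1 was measured, Hba-a1 at 0.39 ± 0.02. The part of other cells in the ratios of the glycolysis genes was not tested.

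The promoters were searched for the letters ACGTG and GCGTG on either strand, which hypoxia-inducible factors can recognise, in RefSeq windows of 250 bases before each gene's start (GRCm38.p6). Across 32851 windows ACGTG was present in 16.6%, GCGTG in 28.2%, and either in 38.6%. The longer CACGTG, which Myc can recognise and which contains ACGTG on both strands, was present in 6.02%. Of 14 windows of the 9 genes, 11 held either motif, against 38.6% of all windows. The windows are not independent, because those of the same gene can overlap and share a match, as for Pfkm. The GC content of the 14 windows ran from 36.4% to 69.6%. Most of them lay above the median of 52.4% for all windows. The share of 38.6% takes no account of GC content, and windows of like GC content were not compared. Gpi1 had no match in this window, which says only that these letters are not there. A match is a description of the sequence and not a bound site.

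Windows are shown for the genes that passed 1.5-fold, Pfkl and Hk2, and for Hk3, whose ratio was near 0, with matches in capitals. Pfkl (chr10:78009808-78010057, minus strand) has 1 GCGTG, Hk2 (chr6:82774455-82774704, minus strand) has 2 ACGTG, and Hk3 (chr13:55021386-55021635, minus strand) has 1 ACGTG. The letters found in Pfkl differed from those in Hk2 and Hk3, and a link between these letters and the ratios was not tested.
Pfkl: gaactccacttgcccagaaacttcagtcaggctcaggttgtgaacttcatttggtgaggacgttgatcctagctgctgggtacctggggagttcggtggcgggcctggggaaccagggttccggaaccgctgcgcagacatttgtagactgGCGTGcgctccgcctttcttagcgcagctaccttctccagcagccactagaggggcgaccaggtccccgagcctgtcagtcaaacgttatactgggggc
Hk2: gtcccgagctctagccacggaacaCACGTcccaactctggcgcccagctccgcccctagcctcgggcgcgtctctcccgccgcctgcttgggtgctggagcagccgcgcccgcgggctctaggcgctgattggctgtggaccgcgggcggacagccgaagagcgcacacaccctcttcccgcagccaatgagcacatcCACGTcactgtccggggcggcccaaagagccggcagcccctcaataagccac
Hk3: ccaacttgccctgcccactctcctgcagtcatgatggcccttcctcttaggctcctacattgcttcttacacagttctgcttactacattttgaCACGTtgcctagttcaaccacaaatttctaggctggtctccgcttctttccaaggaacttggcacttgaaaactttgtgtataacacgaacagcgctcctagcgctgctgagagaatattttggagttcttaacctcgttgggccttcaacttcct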

How the data were processed

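Total RNA of both B cell cultures was hybridised on 2 Agilent arrays. The deposited files came from Agilent Feature Extraction 9.1.3.1, per the file headers, and hold the mean and background intensity of each spot in Cy3 and Cy5, with the deposited log10 ratio of Cy5 over Cy3 after background and dye correction. A further table deposited by the authors holds log2 ratios, and its rows name no probe; 40929 of 40929 probes with 1 spot matched its values within 0.001, after constants of 0.0011 and 0.0327 were added, with miR-181b over control on both arrays. Its column medians were -0.0626 and -0.0704. It serves only as an alternative.

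The limma package 3.58.1 (R 4.3.3) gave the ratios: normexp background with an offset of 50, loess with controls at weight 0, and array 2 turned in sign. Of 45018 spots 43379 were not controls. Outlier spots (7 and 21) were left out and saturated ones kept. In a channel, 64.7% to 67.7% of spots were well above background and 71 to 562 were saturated. Spots of a probe were averaged, and a gene took its brightest measured probe. The offset shrinks ratios of dim probes. Probes outside the 9 genes were named through a RefSeq table (GRCm38.p6). The number of arrays limits the precision, and both share 1 slide. The steps were tested on simulated data without saturation and with a dye bias that did not change with intensity. That test does not cover saturated probes or intensity-dependent dye bias.

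The genes, lists and rules were chosen with earlier results of these data known. Named genes were all 9 with every probe, measured genes of the upper glycolysis list, and up to 3 per other list with the largest mean of 1 sign. Results for some genes that this rule names are left out here. Each setting was changed in turn.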

Additional observations from a re-analysis of the deposited data

How the results depend on the processing

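The number of upper glycolysis genes lower by 1.5-fold was 2 of 9 (0.512% of all measured genes). It was 7 under median centring (5.17%) and 1 under scaling between arrays (0.478%). On array 1 alone it was 4 (1.58%), and on array 2 alone 1 (1.47%). By sign alone 7 were lower (27.4%) and 1 higher (24.4%). The number lower by sign was 8 under median centring (55.3%) and 6 with the probes of a gene averaged (27.3%). By the 2-fold rule 0 were lower (0.0967%). The number 1.5-fold higher was 0 (0.819%). On array 2 alone it was 1, the saturated Gpi1, where 884 of 17579 measured genes were 1.5-fold higher. The median of the 9 genes (-0.42) was -0.82 under median centring, -0.30 with the probes of a gene averaged, and -0.45 to -0.29 on single arrays. The other upper glycolysis genes (-0.05) had a median of -0.10 by the scanner's ratio, -0.20 under median centring, -0.085 in the deposited table, -0.019 with probes averaged, -0.006 with dim probes kept, and -0.031 to 0.014 on single arrays. Under median centring lower glycolysis was at -0.62. The pentose phosphate pathway changed sign from 0.05 to -0.30, and docking genes and regulators from 0.05 to -0.24. The hexosamine and polyol branches also reversed, to -0.31 (0.02 to 0.12 on single arrays). Hk3 reversed to -0.084. The cause was not tested. No paired analysis was possible because there is 1 pair of RNAs. The slide could not be a block, since both arrays share it. Saturation limits Gpi1, and low signal limits Hk3.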

Other observations

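Aldoc, the brain type aldolase that splits the product of phosphofructokinase, had a second probe at -1.21, below the -0.54 of its brightest probe.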
